A study of Mus musculus with 8 samples.

Results

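The genes described here are 37 genes of the hypoxia response and of glycolysis in mouse, listed by symbol and measured on microarrays. They fall into 4 groups by role. The group called regulators has 4 genes, Hif1a and Epas1 of the hypoxia-inducible factors (HIF) themselves, and Egln1 and Egln3, enzymes acting on them. The others are 13 targets of these factors outside glycolysis, 6 genes of sugar and lactate transport and of glycolytic control, and 14 glycolytic enzymes. A member was measured where a probe set carried its symbol and no other, which held for 34 of the 37 among 19938 genes measured in this way. Where a gene had several such probe sets, the brightest on average across the arrays represents it. Gapdh was carried only by probe sets that also list other symbols, and no probe set of the annotation carried Gpi1 or Eno1, so these 3 enzymes were not analysed here among the genes.

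The cells were mouse pre-iPSCs, named MaF pre-iPSC9P2 in the labels, that is, cells taken partway through reprogramming towards pluripotency. They grew on feeder cells in medium for mouse embryonic stem cells (mESC medium). Of the 8 arrays, 4 held RNA of cells given vitamin C (ascorbate) at 50 µg/ml from day 2 onwards, and 4 held RNA of untreated cells of the same name in the same medium. Cells were lysed on days 3, 4, 5 and 6, with 1 array for each treatment and day, after trypsin treatment and removal of feeder cells. The labels give no strain or transgene beyond this name, and 1 such line was used. Whether each day had a culture of its own is not stated, so the p-values cover the spread among these arrays alone, and that spread may be technical. A difference on a single day has no replicate.

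HIF is a transcription factor of an alpha subunit (Hif1a or Epas1) and Arnt. In the presence of oxygen, prolyl hydroxylases of the Egln family mark the alpha subunit for breakdown through the Vhl protein, in a reaction that uses iron and 2-oxoglutarate and for which ascorbate serves as a cofactor. When oxygen is scarce the alpha subunit persists and the factor raises transcription of genes for glucose uptake, glycolysis, blood vessel growth and removal of mitochondria. Pluripotent stem cells are known for a high glycolytic rate, and glycolysis rises during reprogramming. Arrays measure RNA and not the HIF protein, oxygen or metabolic flux.

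HIF binds DNA at short elements with the core letters ACGTG or GCGTG. Promoter windows of 300 bases, from 250 before to 50 after a gene's start, were taken from RefSeq (build GRCm38.p6). The array's own build is not used here. Windows are shown for the members with a rising slope on day both with and without vitamin C, and for Ldha, which rose in neither and whose window holds the most core letters. Capitals mark ACGTG or GCGTG on either strand, so that CACGC and CACGT are the same letters read on the other strand, and CACGTG holds ACGTG on both strands.
Egln3 (chr12:54203825-54204124, minus strand): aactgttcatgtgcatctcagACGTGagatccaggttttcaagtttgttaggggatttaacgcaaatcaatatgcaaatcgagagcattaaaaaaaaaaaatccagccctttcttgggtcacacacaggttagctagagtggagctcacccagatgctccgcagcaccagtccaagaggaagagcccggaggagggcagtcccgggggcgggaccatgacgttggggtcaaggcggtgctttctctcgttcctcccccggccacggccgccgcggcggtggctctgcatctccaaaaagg
Bnip3 (chr7:138909457-138909756, minus strand): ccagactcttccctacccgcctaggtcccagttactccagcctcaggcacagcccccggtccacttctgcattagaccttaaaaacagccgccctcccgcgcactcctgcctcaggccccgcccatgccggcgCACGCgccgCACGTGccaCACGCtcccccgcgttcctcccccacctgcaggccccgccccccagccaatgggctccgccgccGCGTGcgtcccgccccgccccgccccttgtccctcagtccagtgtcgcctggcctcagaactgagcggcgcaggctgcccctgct
Ankrd37 (chr8:45999801-46000100, minus strand): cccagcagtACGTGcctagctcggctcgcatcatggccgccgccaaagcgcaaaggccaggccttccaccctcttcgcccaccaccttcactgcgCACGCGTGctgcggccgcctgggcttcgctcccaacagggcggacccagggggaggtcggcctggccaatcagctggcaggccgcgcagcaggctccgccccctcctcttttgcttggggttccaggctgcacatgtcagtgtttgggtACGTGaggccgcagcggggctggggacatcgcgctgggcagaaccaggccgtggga
Ddit4 (chr10:59951721-59952020, minus strand): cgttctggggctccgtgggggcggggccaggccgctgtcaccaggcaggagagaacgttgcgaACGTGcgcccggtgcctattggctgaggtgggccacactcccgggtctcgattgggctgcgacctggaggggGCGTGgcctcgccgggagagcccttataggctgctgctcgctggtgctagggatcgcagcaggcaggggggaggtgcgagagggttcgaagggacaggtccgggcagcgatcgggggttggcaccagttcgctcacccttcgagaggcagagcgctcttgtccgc
Aldoc (chr11:78322823-78323122, plus strand): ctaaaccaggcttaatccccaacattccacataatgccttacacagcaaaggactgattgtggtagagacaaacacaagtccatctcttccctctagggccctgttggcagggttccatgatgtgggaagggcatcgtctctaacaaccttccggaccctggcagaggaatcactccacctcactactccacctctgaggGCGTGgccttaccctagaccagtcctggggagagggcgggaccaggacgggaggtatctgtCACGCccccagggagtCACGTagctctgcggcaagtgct
Ldha (chr7:46845554-46845853, plus strand): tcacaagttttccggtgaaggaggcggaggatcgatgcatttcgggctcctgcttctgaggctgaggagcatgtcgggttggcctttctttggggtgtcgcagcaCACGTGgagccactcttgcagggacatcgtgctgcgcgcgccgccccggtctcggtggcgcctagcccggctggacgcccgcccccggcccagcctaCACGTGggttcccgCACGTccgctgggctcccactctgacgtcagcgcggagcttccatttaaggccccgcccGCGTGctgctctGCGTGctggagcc
The Bnip3 window holds ACGTG 2 times, both within 1 CACGTG, and GCGTG 3 times. The Ldha window holds ACGTG 5 times, with 4 of them in a pair of CACGTG, and GCGTG 2 times. In the Ankrd37 window, matches of GCGTG on opposite strands overlap in CACGCGTG. Aldoc and Ldha each have 2 windows, and the one shown is the upstream one.

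The table of RefSeq windows used here gave 45 windows for 32 of the 37 members, without Epas1, Ndrg1, Bnip3l, Ndufa4l2 and Slc2a3. Windows of a gene can overlap, as some of Eno1 and of Aldoa do, so the same letters can count more than once. Either core stood in 36 of the 45 windows (80.0%), against 14380 of 32851 windows of all genes (43.8%). ACGTG stood in 25 of the members' windows (55.6%), against 19.6% of all windows, and GCGTG likewise in 25 (55.6%), against 32.4%. Members whose slope rose with vitamin C held either core in 17 of 21 windows (81.0%), and the other measured members in 15 of 19 (78.9%). The members were listed as known HIF or glycolysis genes, so these shares describe the list, and a match is not a site of binding.

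Values are log2 units as the authors deposited them. Differences are vitamin C minus untreated on the same day, and a slope is the change in log2 units per day over days 3 to 6. The first question was whether members differed between vitamin C and untreated cells over all 4 days. Of the 34 members, 1 was higher with vitamin C and 0 were lower at an adjusted p under 0.05 in limma, against 0.537% and 0.216% of all genes tested. At an unadjusted p under 0.05 there were 5 members, all higher with vitamin C, against 12.7% of all genes in either direction. The median difference over days was 0.04 for the members and -0.01 for all genes.

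The 1 member past the threshold was Ndufa4l2 (probe set 10366951), which codes for a mitochondrial protein related to a respiratory chain subunit and is a HIF1 target. Its values on days 3 to 6 were 4.89, 5.70, 6.89 and 7.15 with vitamin C, against 4.11, 4.95, 5.69 and 6.59 in untreated cells. The vitamin C array was the higher one on every day, although the ranges of the treatments overlap because both climb with the day. The difference over days was 0.82 ± 0.13 (moderated SE, 4 days), or 1.77-fold, with an adjusted p of 0.027 in limma, and the daily differences of 0.77, 0.76, 1.21 and 0.56 had an SD of 0.27. The call was lost without day 4 (adjusted p 0.183) and without day 5 (adjusted p 0.147), with differences of 0.85 and 0.70. Over all genes, calls in either direction fell likewise, from 150 to 3 without day 4 and to 9 without day 5.

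Some markers of cell types moved with the treatment as well. Of 23 fibroblast markers, chosen to stand for feeder cells, 15 were lower with vitamin C on all 4 days, against 11.1% of all genes. In the test over days 1 passed, as lower, against 0.216%, and their median difference was -0.48 over days. Their mean level per array ran from 6.57 to 7.21 with vitamin C, against 6.71 to 7.77 in untreated cells. With day, 9 of the 23 fell with vitamin C, against 3.39% of all genes, and 12 fell in untreated cells, against 0.968%. With the mean of these markers in the model in place of day, the difference of Ndufa4l2 was -0.24 (adjusted p 0.80 in limma). On every day that mean was lower with vitamin C, and it fell with day in both treatments. This model therefore cannot separate the markers from the treatment and the day. Of 14 pluripotency markers, 5 were higher over days, against 0.537% of all genes, and 0 lower. With vitamin C 11 rose with day, against 5.25%, and in untreated cells 3 rose, against 0.782%. Their mean level ran from 6.46 to 7.90 with vitamin C, against 5.83 to 6.37 in untreated cells. The 6 measured blood markers had mean levels of 3.35 to 3.64 with vitamin C and 3.30 to 3.68 in untreated cells, and the 7 endothelial markers 3.67 to 3.74 and 3.54 to 3.72, beside a mean of all genes between 4.88 and 4.90 on every array. Of the blood markers Cd68 rose with day with vitamin C (0.79 per day, adjusted p 0.0102 in limma), beside 0.47 in untreated cells (adjusted p 0.149), and 0 passed the test over days. Of the endothelial markers Pecam1, which pluripotent cells also express, was higher with vitamin C over days (0.81, adjusted p 0.0321, on 4 of 4 days), and Tek fell by 0.35 per day with vitamin C (adjusted p 0.0328). The part of other cells in the members' values was not tested further, and in bulk RNA fewer cells of a type and less RNA per cell cannot be told apart.

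The next smallest p belonged to Slc16a3 (probe set 10383502), the monocarboxylate transporter through which glycolytic cells export lactate. It measured 7.29, 7.33, 8.07 and 8.15 with vitamin C on days 3 to 6, against 6.83, 6.83, 7.49 and 7.81 in untreated cells. Each vitamin C array lay above the untreated array of its day, by 0.34 to 0.59. The difference over days was 0.47 ± 0.10 (moderated SE), with an adjusted p of 0.0831 in limma, which does not pass.

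Including these 2 genes, 6 members had the higher value with vitamin C on all 4 days, against 9.29% of all genes, and 0 had the lower value on all 4 days, against 11.1%. The others were Egln3, Ndrg1, Bnip3l and Stc2, a secreted glycoprotein, with differences over days of 0.38, 0.41, 0.24 and 0.30 and adjusted p values between 0.227 and 0.457 in limma.

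**Figure D1:**
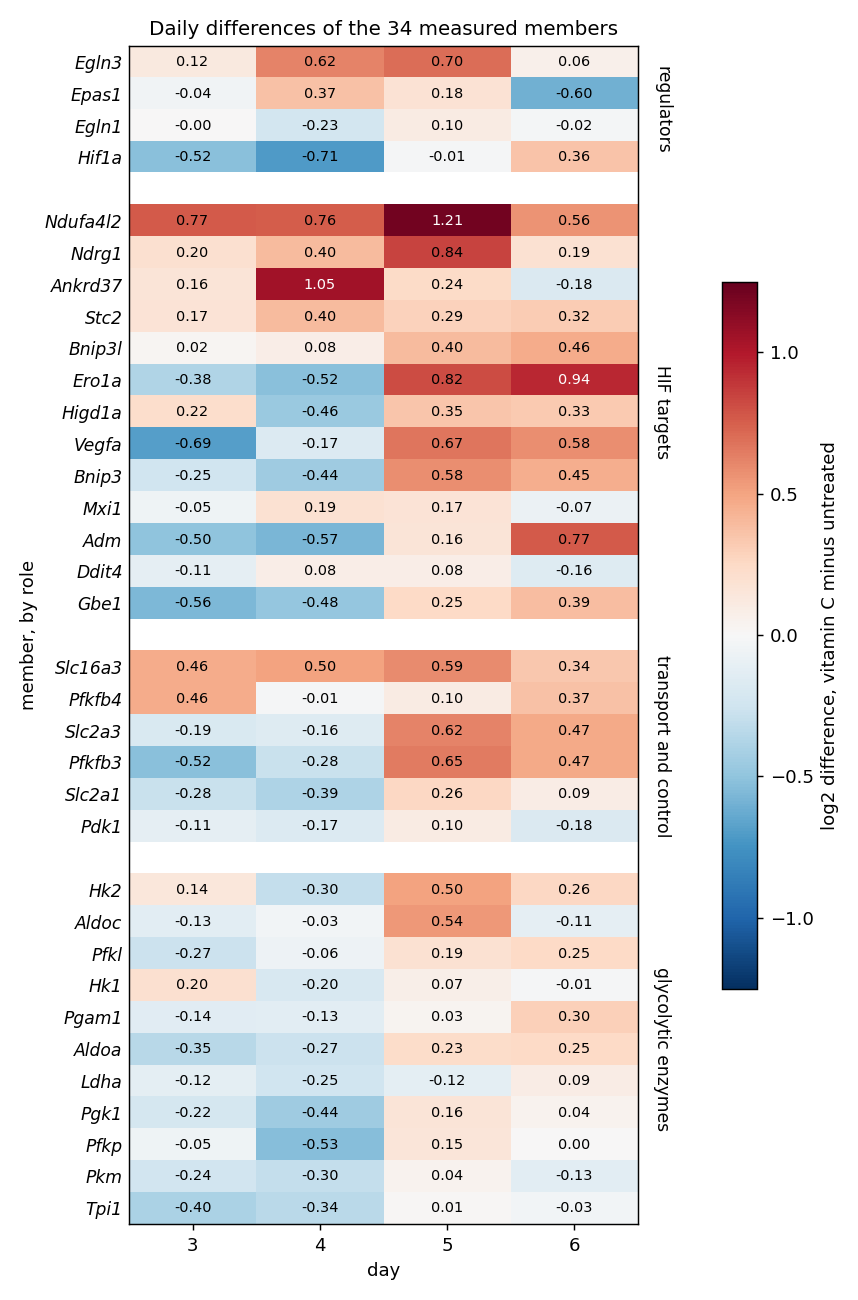
Log2 difference, vitamin C minus untreated, of each of the 34 measured members (rows, by role and in the order of their mean difference) on days 3 to 6 (columns), with 1 array per treatment and day. All 11 glycolytic enzymes are below 0 on day 4, and Ndufa4l2 is above 0.5 on all days.

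Behind these averages the differences changed sign between the early and the late days. In 13 of 34 members the vitamin C array was the lower one on days 3 and 4 and the higher one on days 5 and 6, against 7.02% of all genes. They were Vegfa, Bnip3, Adm, Ero1a and Gbe1 among the HIF targets, Slc2a1, Slc2a3 and Pfkfb3 among transport and control, and Pfkl, Pfkp, Aldoa, Pgk1 and Pgam1 among the enzymes, where Pfkp differed by 0.00 on day 6. On day 4, the vitamin C array was lower for 24 of the 34 members, against 9898 of the 19938 genes. All 11 glycolytic enzymes were among these 24. On day 5 the vitamin C array was higher for 32 members, all but Ldha and Hif1a, against 9265 of the 19938 genes. Each of these counts rests on 1 array per treatment and was not tested.

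The role groups differed in the size of these differences. The median difference of the 13 HIF targets on days 3 to 6 was -0.05, 0.08, 0.35 and 0.39. For the 6 genes of transport and control it was -0.15, -0.17, 0.42 and 0.35. The 11 glycolytic enzymes had medians of -0.14, -0.27, 0.15 and 0.04, so that the enzymes stood lower than the HIF targets on every day, and the 4 regulators had -0.02, 0.07, 0.14 and 0.02. The medians of all genes were 0.02, 0.00, -0.02 and -0.03. These medians are descriptions, and the difference between the role groups was not tested.

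The second question was whether the course over the days differed between the treatments. In the test of the difference of the slopes, 0 of 34 members passed, against 0.0652% of all genes, and 7 members had an unadjusted p under 0.05, against 11.3% of all genes. In all 7 the slope with vitamin C minus the untreated slope was above 0. The slope was the greater one with vitamin C in 25 of 34 members, against 8959 of the 19938 genes. The smallest p belonged to Ero1a (probe set 10419198), an oxidase that forms disulfide bonds in the endoplasmic reticulum. Its values were 7.33, 7.40, 8.76 and 9.48 with vitamin C, against 7.71, 7.91, 7.94 and 8.54 in untreated cells. The vitamin C arrays were below the untreated ones on days 3 and 4, and the vitamin C array of day 5 lay above every untreated array. The slopes differed by 0.53 ± 0.14 per day (moderated SE, adjusted p 0.21 in limma).

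Hif1a, the oxygen-regulated subunit itself, measured 7.45, 7.50, 7.58 and 7.54 with vitamin C, against 7.97, 8.21, 7.58 and 7.18 in untreated cells. The vitamin C values were nearly flat, and the untreated ones were highest on day 4 and lowest on day 6. Its slopes differed by 0.33 ± 0.11 per day (moderated SE, adjusted p 0.31 in limma), and neither slope passed on its own, with -0.30 per day in untreated cells (adjusted p 0.0945). HIF activity is controlled largely through the stability of this protein, which arrays do not show.

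Vegfa, the growth factor for blood vessels, had 5.99, 6.01, 6.94 and 7.58 with vitamin C, against 6.68, 6.18, 6.27 and 7.00 in untreated cells. Adm, a peptide that widens vessels, had 6.48, 6.49, 6.90 and 8.08 with vitamin C, against 6.98, 7.05, 6.74 and 7.31 in untreated cells. Gbe1, the branching enzyme of glycogen synthesis, had 5.13, 4.92, 5.61 and 6.13 with vitamin C, against 5.68, 5.40, 5.36 and 5.74 in untreated cells. In all 3 the ranges of the treatments overlap, with the vitamin C arrays lowest on the early days and highest on day 6. The slope differences were 0.46, 0.45 and 0.36 per day, with adjusted p values of 0.341, 0.333 and 0.356 in limma.

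**Figure D2:**
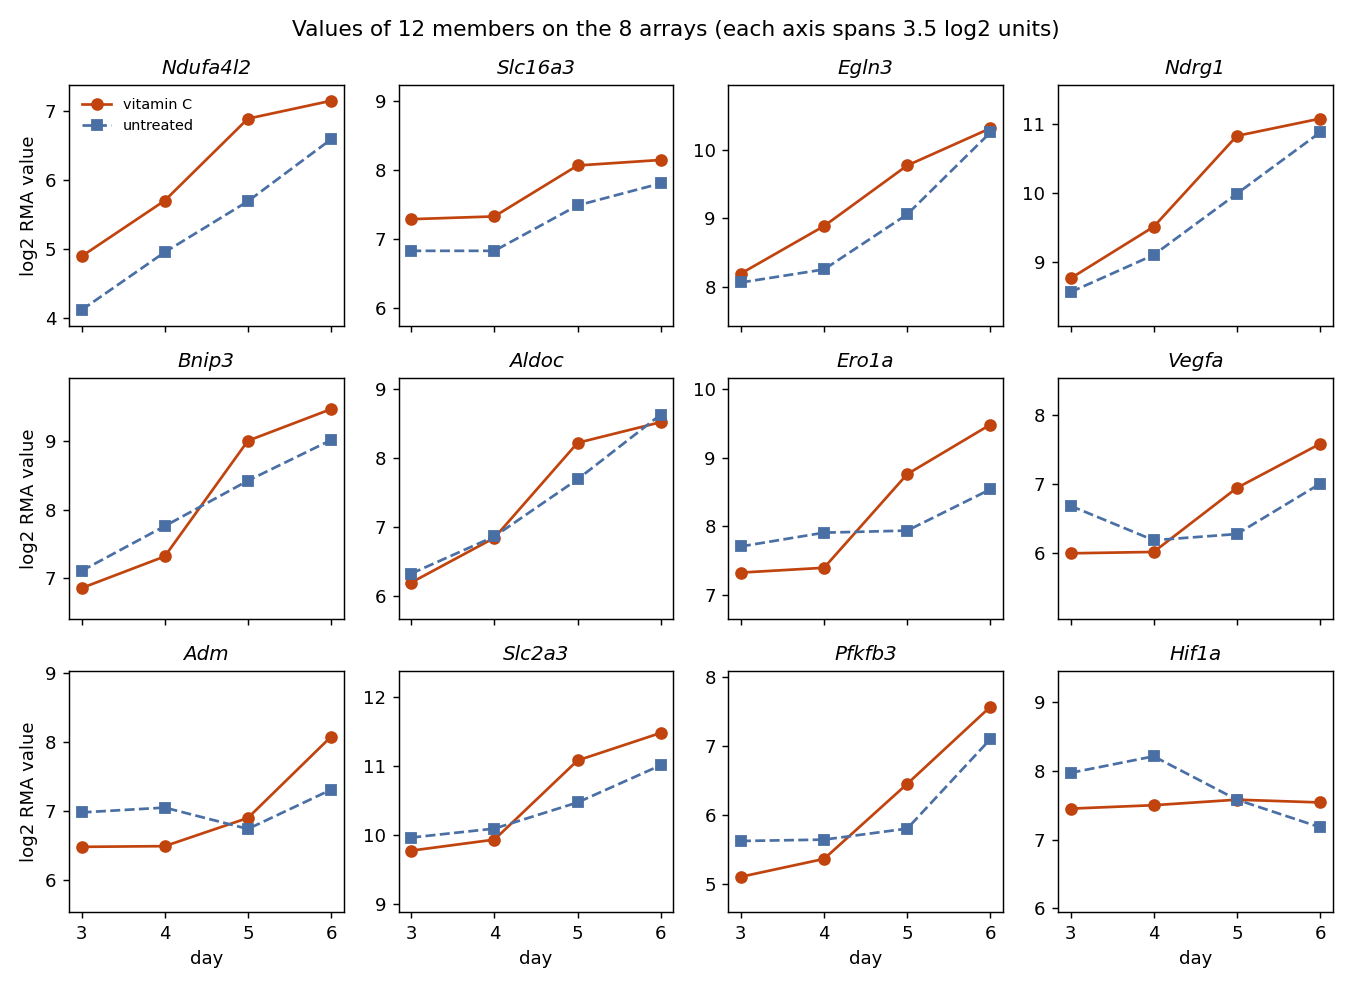
Log2 values (vertical axes, each spanning 3.5 log2 units) of 12 members against day (horizontal axes), with vitamin C (circles, solid line) and untreated (squares, dashed line), 1 array per point. Ndufa4l2 and Slc16a3 run in parallel with the vitamin C line above, and Ero1a, Vegfa, Adm, Slc2a3 and Pfkfb3 cross between days 4 and 5.

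The third question was which members changed with the day in each treatment. With vitamin C, 20 of 34 members rose with day at an adjusted p under 0.05 in limma, against 5.25% of all genes, and 0 fell, against 3.39%. In untreated cells, 7 rose, against 0.782%, and 0 fell, against 0.968%. All 7 were among the 20, and a rise in both treatments was called for 0.592% of all genes. With the arrays of each treatment fitted alone, slopes of 15 members were called with vitamin C and of 11 in untreated cells. Over all genes, these fits called 879 and 456 slopes. The counts of 20 and 7 also changed with the last day left out. Without the vitamin C array of day 6, 5 members rose with vitamin C, and without the untreated array of day 6, 0 rose in untreated cells. Over all genes, slopes called in either direction fell likewise, from 1722 to 270 with vitamin C and from 349 to 8 in untreated cells. The 13 members called with vitamin C alone are not thereby shown to differ between treatments, since the test of that difference passed for none.

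Among the regulators, Egln3 rose in both treatments. It is the HIF prolyl hydroxylase whose own gene is a strong HIF target. Its values (probe set 10400304) were 8.20, 8.89, 9.77 and 10.31 with vitamin C, against 8.07, 8.26, 9.06 and 10.25 in untreated cells. The treatments started and ended close together and were apart by 0.62 and 0.70 on days 4 and 5. The slopes were 0.72 ± 0.09 per day with vitamin C (adjusted p 0.00169) and 0.73 ± 0.09 in untreated cells (adjusted p 0.00414, moderated SE, limma). Egln1, the main oxygen sensor of the family, had slopes of 0.16 and 0.14 with adjusted p values of 0.162 and 0.332. Epas1, the alpha subunit also called HIF2 alpha, had slopes of -0.02 and 0.17 and did not pass, with a largest daily difference of -0.60 on day 6.

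Of the 13 HIF targets, 10 rose with vitamin C and 5 in untreated cells. Ndufa4l2, described above, had almost the same slope in both, 0.80 ± 0.08 with vitamin C (adjusted p 0.000523) and 0.82 ± 0.08 in untreated cells (adjusted p 0.0018, moderated SE, limma). Day 6 stood 4.80-fold above day 3 with vitamin C and 5.55-fold in untreated cells. Ndrg1, a stress-responsive gene widely used as a marker of hypoxia, had 8.76, 9.51, 10.83 and 11.08 with vitamin C, against 8.56, 9.10, 9.99 and 10.88 in untreated cells. It gained at each step in both treatments, and day 6 was 5.00-fold above day 3 in each. The slopes were 0.83 with vitamin C (adjusted p 0.000661) and 0.79 in untreated cells (adjusted p 0.00276).

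Bnip3, which drives removal of mitochondria by autophagy, had the steepest slope of all members with vitamin C. It measured 6.86, 7.32, 9.00 and 9.46 with vitamin C, against 7.11, 7.76, 8.42 and 9.01 in untreated cells. The vitamin C arrays started below and ended above, so the range of the untreated arrays lies within theirs. The slopes were 0.95 ± 0.09 with vitamin C (adjusted p 0.000521) and 0.64 ± 0.09 in untreated cells (adjusted p 0.00893, moderated SE, limma). This probe set, 10414269, is numbered among probe sets of chromosome 14, whereas the gene lies on chromosome 7. The other probe set of Bnip3, numbered among those of chromosome 7, had daily differences of -1.22, -0.64, 0.33 and 0.50. Its slopes differed by 0.61 per day (adjusted p 0.0626 in limma), against 0.31 for the probe set used (adjusted p 0.416). Bnip3l, a relative with the same function, rose with vitamin C by 0.28 per day (adjusted p 0.0169), with 0.12 in untreated cells (adjusted p 0.338). The probe sets used for Bnip3l, Higd1a and Pkm are likewise numbered among those of a chromosome other than the gene's.

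Ankrd37, an ankyrin repeat gene induced by HIF1, and Ddit4, an inhibitor of the mTORC1 growth pathway, rose in both treatments. Ankrd37 had 4.44, 5.32, 5.37 and 5.80 with vitamin C, against 4.27, 4.27, 5.13 and 5.98 in untreated cells. Its vitamin C array stood out on day 4, by 1.05, and lay below the untreated one on day 6. Ddit4 had 6.50, 7.00, 7.30 and 7.91 with vitamin C, against 6.61, 6.92, 7.22 and 8.07 in untreated cells, and the treatments never differed by more than 0.16. The Ddit4 slopes were 0.45 and 0.47 per day, with adjusted p values of 0.00479 with vitamin C and 0.0112 in untreated cells. For Ankrd37 the slopes were 0.41 and 0.60, with adjusted p values of 0.029 and 0.0159.

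Ero1a, Vegfa, Adm and Gbe1 rose with vitamin C, with slopes of 0.78, 0.57, 0.52 and 0.37 per day and adjusted p values of 0.00175, 0.0149, 0.0192 and 0.0369 in limma. Their untreated slopes were 0.25, 0.11, 0.07 and 0.01 and did not pass. Stc2, Mxi1, a Myc antagonist of the Max network, and Higd1a, a mitochondrial protein, passed in neither, with slopes between -0.15 and 0.21. The level of Higd1a, 4.28 to 5.06, was close to the median gene mean of 4.70, and its other probe set ran from 4.12 to 4.57.

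**Figure D3:**
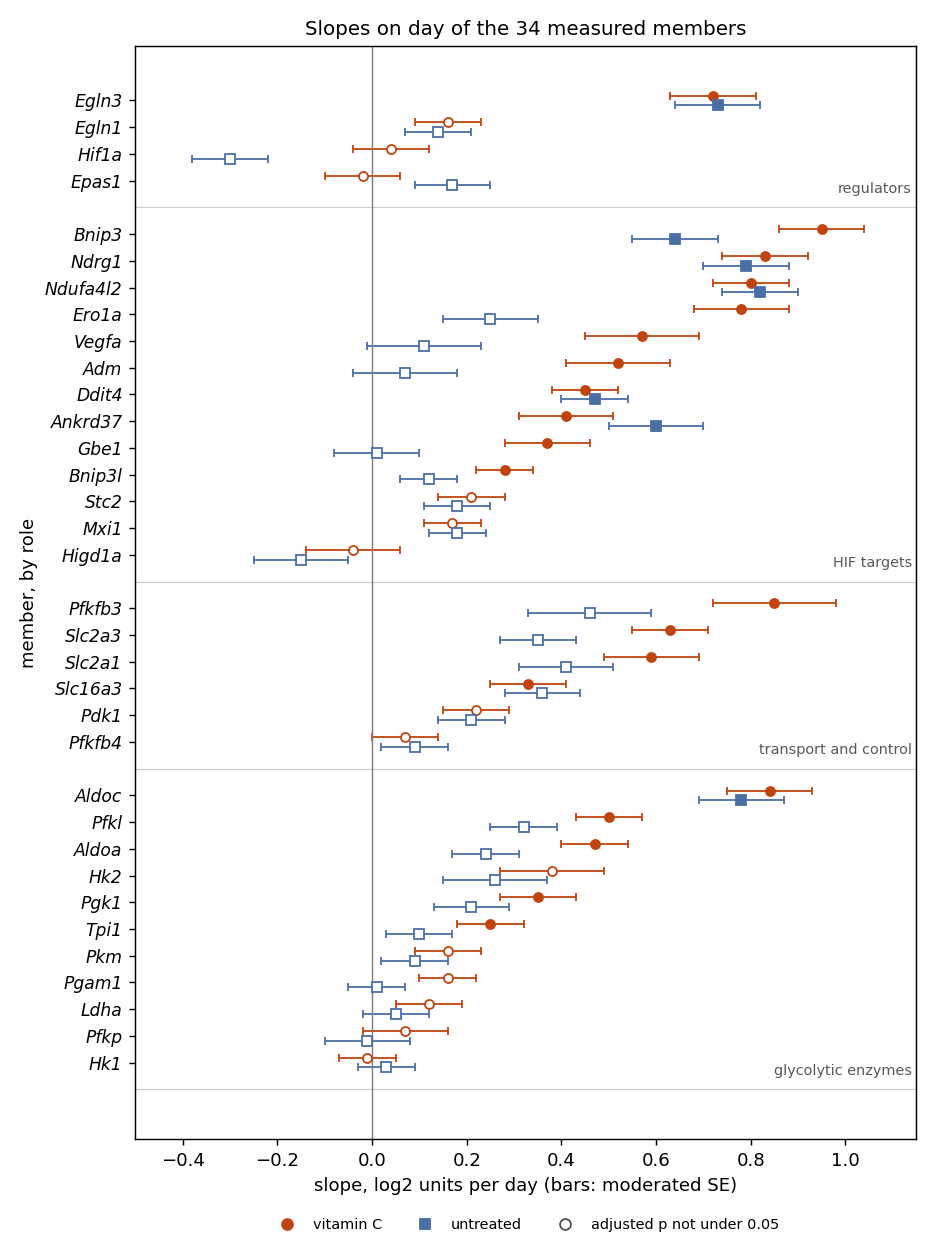
Slope on day of the 34 measured members by role (horizontal axis, log2 units per day, bars are moderated SE from limma), with vitamin C (circles) and untreated (squares). Filled symbols have an adjusted p under 0.05, which holds for 20 members with vitamin C and 7 in untreated cells, and no filled symbol lies below 0.

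In transport and control, 4 of 6 genes rose with vitamin C and 0 in untreated cells. At an unadjusted p under 0.05 there were 5 in each, against 24.9% of all genes in either direction with vitamin C and 17.0% in untreated cells. Slc2a1, the glucose transporter Glut1, had 10.56, 10.46, 11.74 and 12.10 with vitamin C, against 10.84, 10.85, 11.48 and 12.01 in untreated cells. Slc2a3, the transporter Glut3, had 9.77, 9.93, 11.08 and 11.48 with vitamin C, against 9.96, 10.09, 10.47 and 11.01 in untreated cells. For both transporters days 3 and 4 were alike within each treatment and days 5 and 6 stood above them, and the ranges of the treatments overlap. The slopes with vitamin C were 0.59 for Slc2a1 (adjusted p 0.00803) and 0.63 for Slc2a3 (adjusted p 0.00224), and those in untreated cells 0.41 (adjusted p 0.082) and 0.35 (adjusted p 0.0681).

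Pfkfb3 makes fructose 2,6-bisphosphate, the activator of phosphofructokinase. It had 5.10, 5.36, 6.45 and 7.57 with vitamin C, against 5.62, 5.64, 5.80 and 7.10 in untreated cells. The climb began on day 5 with vitamin C, whereas the untreated arrays of days 3 to 5 were close together. Day 6 stood 5.52-fold above day 3 with vitamin C and 2.78-fold in untreated cells, and the slopes were 0.85 ± 0.13 (adjusted p 0.0037) and 0.46 ± 0.13 (adjusted p 0.105, moderated SE, limma). Slc16a3 rose with vitamin C by 0.33 per day (adjusted p 0.0294), beside 0.36 in untreated cells (adjusted p 0.0517). Pdk1, a kinase that holds pyruvate back from the mitochondrion, and Pfkfb4, a relative of Pfkfb3, passed in neither, with slopes from 0.07 to 0.22.

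Of the 11 measured glycolytic enzymes, 5 rose with vitamin C and 1 in untreated cells. Aldoc, the aldolase of brain, rose in both. Its values (probe set 10379153) were 6.19, 6.84, 8.22 and 8.52 with vitamin C, against 6.32, 6.86, 7.69 and 8.63 in untreated cells. The treatments were within 0.13 of each other except on day 5, when vitamin C was higher by 0.54. Its slopes of 0.84 with vitamin C (adjusted p 0.000648) and 0.78 in untreated cells (adjusted p 0.00276) were the steepest among the enzymes.

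Aldoa, the aldolase of muscle and most other cells, had 10.32, 10.42, 11.27 and 11.59 with vitamin C, against 10.68, 10.69, 11.04 and 11.35 in untreated cells. Pfkl, a phosphofructokinase, had 7.53, 7.80, 8.66 and 8.92 with vitamin C, against 7.80, 7.87, 8.46 and 8.68 in untreated cells. Pgk1, the phosphoglycerate kinase that yields ATP, had 9.54, 9.36, 10.22 and 10.41 with vitamin C, against 9.76, 9.80, 10.06 and 10.37 in untreated cells. In each of these 3 the lowest value of all was a vitamin C array of day 3 or 4, and the highest the vitamin C array of day 6. The slopes with vitamin C were 0.47, 0.50 and 0.35 per day, with adjusted p values of 0.0048, 0.00324 and 0.0286 in limma, and those in untreated cells were 0.24, 0.32 and 0.21 and did not pass. Tpi1, the triosephosphate isomerase, rose with vitamin C by 0.25 per day (adjusted p 0.0419), a call that was lost under 11 of 17 alternatives. Among all members, the slope call with vitamin C was lost under 5 of 17 for Pgk1 and for Gbe1. It was lost under 4 for Slc16a3, under 3 for Bnip3l and for Ankrd37, and under at most 2 for every other member called.

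The other 6 measured enzymes passed in neither treatment. Ldha, which converts pyruvate to lactate, had 10.69, 10.50, 10.73 and 11.01 with vitamin C, against 10.80, 10.75, 10.84 and 10.92 in untreated cells, and the groups overlap. Its slopes of 0.12 and 0.05 per day did not pass (adjusted p 0.30 and 0.786 in limma), nor did those of Pkm, the pyruvate kinase, 0.16 and 0.09, or of Pgam1, a phosphoglycerate mutase, 0.16 and 0.01. The Pkm probe set numbered among those of the gene's own chromosome had slopes of 0.25 with vitamin C (adjusted p 0.0532) and 0.06 in untreated cells (adjusted p 0.708 in limma). Of the hexokinases, which trap glucose in the cell, Hk2 had slopes of 0.38 with vitamin C (adjusted p 0.0553) and 0.26 in untreated cells (adjusted p 0.249). The phosphofructokinase Pfkp had 0.07 and -0.01.

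Hk1 had slopes of -0.01 and 0.03, but its probe set is in doubt. Of its 2 probe sets with no other symbol, the one with the higher mean, 11.96, is numbered among those of chromosome 14, whereas the gene lies on chromosome 10, and 16 further probe sets list Hk1 with other symbols. The probe set numbered among those of chromosome 10 had a mean of 6.55 and day 6 above day 3 by 0.51 with vitamin C and by 0.12 in untreated cells. For Gapdh, the standard reference gene, all 25 probe sets list other symbols, and their median change from day 3 to day 6 was 0.31 with vitamin C and -0.01 in untreated cells. RNA of such copies cannot be told apart by these probe sets, and their differences over days lay between -0.05 and 0.04.

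The timing of the climb differed in the arrays. With vitamin C, all 34 members were higher on day 5 than on day 4, against 47.7% of all genes. Steps from a day to the next were ranked with their sign, so the largest is the greatest rise or, without a rise, the smallest fall. The largest step lay between days 4 and 5 in 25 of 34 members with vitamin C, against 38.0% of all genes. In untreated cells it lay between days 5 and 6 in 19 of 34, against 29.7%. The median step with vitamin C was 0.03, 0.61 and 0.27 from day 3 to 4, 4 to 5 and 5 to 6, against 0.04, 0.19 and 0.34 in untreated cells. For the glycolytic enzymes the largest step with vitamin C lay between days 4 and 5 in 10 of 11, and for the HIF targets in 7 of 13. In untreated cells the later step was not shared by all roles. The largest step lay between days 5 and 6 in 9 of 13 HIF targets and 3 of 4 regulators. It lay between days 4 and 5 in 4 of 6 genes of transport and control, against 36.3% of all genes. Of the 11 enzymes, 5 had it at each of these steps. Each step rests on 2 arrays without replicates and was not tested.

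**Figure D4:**
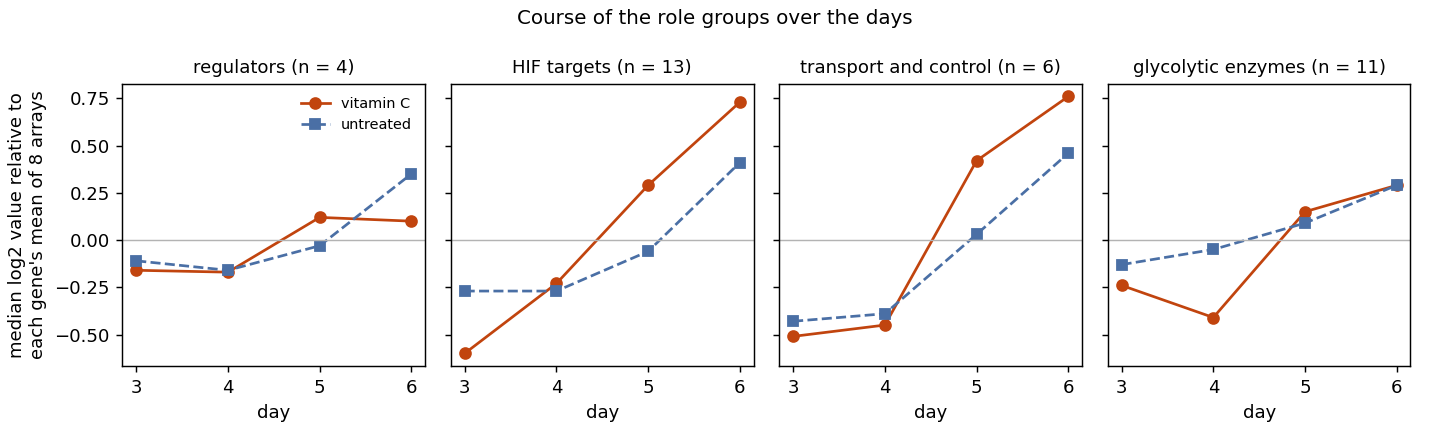
Median over the members of a role of the log2 value relative to each gene's own mean over the 8 arrays (vertical axis), against day, with vitamin C (circles, solid line) and untreated (squares, dashed line). HIF targets reach 0.73 with vitamin C and 0.41 in untreated cells on day 6, and glycolytic enzymes reach 0.29 in both after lying lower with vitamin C on days 3 and 4.

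By role, the median slope per day was 0.45 with vitamin C and 0.18 in untreated cells for the HIF targets. For transport and control it was 0.46 and 0.36, for the glycolytic enzymes 0.25 and 0.10 and for the regulators 0.10 and 0.15, beside -0.02 and 0.00 for all genes. The share of members that rose with vitamin C was 10 of 13 HIF targets, 4 of 6 of transport and control, 5 of 11 enzymes and 1 of 4 regulators. The enzymes therefore had the smaller median slope than the HIF targets in both treatments, a difference between role groups that was not tested.

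Other genes of the same pathways, listed apart from the members, gave the following counts. For every such list, the shares of all genes were 5.25% rising and 3.39% falling with vitamin C, and 0.782% rising in untreated cells. Of 29 further HIF targets, 11 rose and 1 fell with vitamin C, and 2 rose in untreated cells. The 4 with the smallest p were Flt1, a receptor of vascular growth factors, P4ha1, a collagen prolyl hydroxylase that itself uses ascorbate, Cxcr4, a chemokine receptor, and Vldlr, a lipoprotein receptor. Their slopes with vitamin C were 0.66, 0.56, 0.58 and 0.43 per day, and Flt1 also rose in untreated cells, by 0.46. A rise with day is not a higher level with vitamin C. Their differences over days were 0.37, -0.48, -0.06 and -0.36 in the same order, and none passed. The differences of P4ha1 were -0.91 and -0.90 on days 3 and 4, and 0.02 and -0.14 on days 5 and 6. The 1 that fell, named after its value was seen, was Car12, a carbonic anhydrase, which fell by 0.34 per day with vitamin C. Besides Flt1, Pnrc1 rose in untreated cells, by 0.34 per day (adjusted p 0.0349 in limma), and was also named after its value was seen. Its slope with vitamin C was 0.10 and did not pass.

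Of 13 further genes of the HIF pathway, 2 rose with vitamin C, which were Cited2, a negative regulator of HIF at 0.65 per day, and Hif3a, an alpha subunit of the family at 0.46. Neither passed in untreated cells. Of 16 other isozymes and transporters of glycolysis, 2 rose and 2 fell with vitamin C, and 1 rose in untreated cells. Those called with vitamin C were Ldhb, the other lactate dehydrogenase subunit (0.46), Pfkfb2 (0.31), Tigar, a phosphatase that lowers fructose 2,6-bisphosphate (-0.33), and Slc16a7, a monocarboxylate transporter (-0.42). The 1 in untreated cells, named after its value was seen, was Slc2a4, the glucose transporter Glut4, with slopes of 0.22 with vitamin C (adjusted p 0.0807) and 0.33 in untreated cells (adjusted p 0.0474 in limma). Of 10 glycogen genes, 3 rose with vitamin C and 2 of them in untreated cells as well. Pygl, the liver glycogen phosphorylase, had 0.74 and 0.37 per day, Pgm1, a phosphoglucomutase, 0.49 and 0.30, and Gys1, the glycogen synthase of muscle, 0.30 and 0.00.

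Of 12 genes for the entry of pyruvate into the mitochondrion, Pcx, the pyruvate carboxylase, rose by 0.31 and Pdhx, a part of the pyruvate dehydrogenase complex, fell by 0.41 per day with vitamin C. Of 6 genes of the pentose phosphate pathway only Tkt, the transketolase, rose, by 0.25. No gene of these 6 lists passed limma's test over days or its test of the slope difference. At an unadjusted p under 0.05 the lists, in the order given here, had 9, 1, 3, 2, 1 and 1 genes in the test over days and 10, 1, 4, 2, 2 and 1 in the test of the slope difference, beside 12.7% and 11.3% of all genes. The 9 further HIF targets in the test over days, named after their values were seen, went in both directions. P4ha1, P4ha2, Car12, Stc1, Vldlr and Insig2 were lower with vitamin C, and Flt1, Ak4 and Hmox1 were higher. The median difference over days of all 29 was -0.02.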

How the data were processed

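The 8 arrays were labelled from 100 ng of total RNA extracted with Trizol, per the labels' protocols. Per the submitters' processing notes, the authors used Partek and RMA, without a version. For the array's build, the sources used here give none. As deposited, the values were read as log2, since the smallest was 0.765 and the largest 13.8. Array medians ran from 4.33 to 4.40. Precision is limited by how few arrays there are.

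Of 28853 probe sets, 23410 were listed in the platform annotation, 21789 with 1 gene symbol, 21698 of these with an identifier in RefSeq's gene table (assembly GRCm38.p6). The 5443 not listed are unnamed here. The probe set with the highest mean per gene gave 19938 genes.

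All tests were moderated, two-sided tests of limma 3.58.1 in R 4.3.3 called at 0.05 after Benjamini-Hochberg adjustment over all 19938 genes. The difference over days used treatment and day as a factor (3 residual and 6.03 prior degrees of freedom), which pairs the arrays of a day. This pairing comes from the labelled day. On days 3 to 6, the paired arrays' deviations from the mean of their treatment had correlations of 0.371, 0.18, 0.125 and 0.475. Slopes and their difference came from a second model, with treatment and separate slopes (4 residual and 6.43 prior degrees of freedom). The tests were checked on simulated arrays. Tables and plots used Python 3.11.15, pandas 2.3.3 and matplotlib 3.10.9.

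Members and lists were chosen with earlier results of these data known. Members were described singly where they passed a test, were among the 6 smallest p of the difference over days or of the slope difference, or among the 4 largest mean differences of their role. Genes of other lists were named where they passed, at most 4 per list by smallest p. Alternatives were other normalizations, leaving out the dimmest 25% of genes, other uses of probe sets, other eBayes options, other uses of day, the fibroblast marker mean in place of day, arrays of 1 treatment alone, and leaving out arrays or days. The use of probe sets numbered within the gene's own chromosome was added after seeing the data.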

Additional observations from a re-analysis of the deposited data

Results flagged for a closer look

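In 4 of 102 sets of 4 values, 1 value lay far from the other 3 by Dixon's test. Chance marks about 1 in 20 sets of 4 independent values from 1 normal distribution. The sets here run over successive days, many with a trend, and share values, so that rate need not hold for them. Each set had the 4 arrays of a treatment or the 4 daily differences of a member. The difference of Higd1a on day 4 was -0.46, against 0.22 to 0.35 on the other days. The difference of Aldoc on day 5 was 0.54, against -0.13 to -0.03. Pfkp measured 7.64 in the vitamin C array of day 4, against 8.23 to 8.26 on the other days, and Pfkfb3 measured 7.10 in the untreated array of day 6, against 5.62 to 5.80.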

How the results depend on the processing

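The number of members higher or lower over days, 1 in the model with arrays paired by day, was 0 with every probe set tested, 2 with trend and robust options (Slc16a3 joins Ndufa4l2), 0 without day in the model (no replicate block), 0 with the fibroblast marker mean in place of day, 0 without both arrays of day 4 and 0 without both of day 5. With 1 array left out it ran from 0 to 1. With the marker mean in place of day the differences turned to -0.64 for Egln3, -0.66 for Ndrg1, -0.01 for Bnip3l, -0.24 for Ndufa4l2 and -0.02 for Slc16a3, and the cause was not tested. The difference of the slopes passed for 0 members under each alternative run, the replicate block among them. Slopes called with vitamin C, 20, were 23 with trend and robust options and 15 with the vitamin C arrays alone. With 1 array left out they ran from 5 to 20, lowest without the vitamin C array of day 6. Slopes called in untreated cells, 7, were 12 with trend and robust options and 11 with the untreated arrays alone, and ran from 0 (without the untreated array of day 6) to 11 (without the vitamin C array of day 4) with 1 array left out. Both counts were 20 and 7 again with probe sets numbered within the gene's own chromosome. Over the alternatives, the median slope with vitamin C ran from 0.40 to 0.61 for the HIF targets and from 0.23 to 0.33 for the glycolytic enzymes, and the untreated one from 0.09 to 0.33 and from 0.06 to 0.17. Over all genes, calls ran from 3 to 376 for the difference over days (150 as reported), 0 to 80 for the slope difference (13), 270 to 2469 for the slope with vitamin C (1722) and 8 to 782 for the untreated slope (349). Dim probe sets have no detection call in the deposited table, so how far background limits low members was not tested.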
